A study of Mus musculus with 10 samples.

Results

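The 10 genes described here encode matricellular proteins and close relatives: tenascin C (Tnc), periostin (Postn), the thrombospondins (Thbs1, Thbs2, Thbs3, Thbs4 and Comp), Sparc, osteopontin (Spp1) and Cthrc1. They were taken by symbol from the deposited gene table, where all 10 were found among 23337 genes, and 9 of the 10 had enough reads to be tested. RNA was sequenced from the left atrium of 10 adult mice, each library labelled as 1 animal. The 6 Tbx5 knockout libraries (F1, F2, F3, M1, M2 and M3) carry the genotype Tbx5-/-, produced by a tamoxifen-inducible Cre from the ubiquitous R26 locus that removes exon 3 of Tbx5, so the deletion is not restricted to 1 cell type. The 4 control libraries (F1, F2, M1 and M2) are labelled wild type, Tbx5 +/+, and whether these mice carried Cre or received tamoxifen is not stated in the labels. Mice of both groups were of mixed C57B6 and 129 background, and F and M in the library names stand for labelled sex. Their age is given as 8 to 10 weeks in one label and 6 to 8 weeks in another. Tamoxifen was given at 0.167 mg per day for 3 days, and atria were taken 1 week later. The comparison addresses which genes change in the adult atrium once TBX5, a cardiac T-box transcription factor, is removed.

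Matricellular proteins are secreted into the extracellular matrix but are not structural parts of it. They bind collagens, integrins, growth factors and proteases, and in doing so alter how cells attach to and remodel the matrix. In the heart they are best known from wound repair and fibrosis, where fibroblasts and macrophages make them. Each gene in a bulk sample is read over all cells at once, so more producing cells and more RNA per cell cannot be told apart here.

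Assigned reads ran from 5789632 to 7355782 in knockout libraries and from 5701670 to 7697556 in control libraries. Levels are the authors' normalized counts, the read count divided by 1 size factor per library. Tbx5 itself read 1497 to 2460 in libraries labelled knockout and 785 to 1077 in control libraries, a log2 fold change of 1.03 ± 0.14 (SE; edgeR quasi-likelihood test, adjusted p = 4.78e-05). That count covers the whole gene and does not measure the loss of exon 3, so it is no check of the labels, and the groups are named by label throughout. Atrial cardiomyocyte markers were abundant in every library: their 7 genes summed to 258801 to 398650 in knockout and 539169 to 601020 in control libraries, with 2 genes higher and 5 lower. Knockout M2 stood apart in several of the genes described here, so results that rest on it are given with and without it.

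Of the 9 tested genes, 7 were higher in knockout atria (Tnc, Postn, Thbs1, Thbs3, Thbs4, Sparc and Cthrc1), 0 were lower, and Thbs2 and Comp did not pass the test (edgeR quasi-likelihood test, Benjamini-Hochberg adjusted p under 0.05 over 13191 genes). Among all tested genes, 20.8% were called higher in knockout, 21.8% lower, and 42.6% in either direction. The 6 called members other than Thbs3 had a log2 fold change above 1, and 6.26% of tested genes were called higher with a change of that size. The median log2 fold change was 2.43 over the 9 tested genes and -0.00 over all tested genes. Thbs4 and Cthrc1 reached the read level of the filter in only 2 and 1 of the 4 control libraries. Both thus entered the test through the knockout libraries. Their part in these counts and in the median, which is the value of Thbs4 itself, is a description. In 7 of the 10 genes, Spp1 among them, the lowest knockout value exceeded the highest control value. Among tested genes that held for 6 of the 9 members and for 16.3% of the whole.

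**Figure D1:**
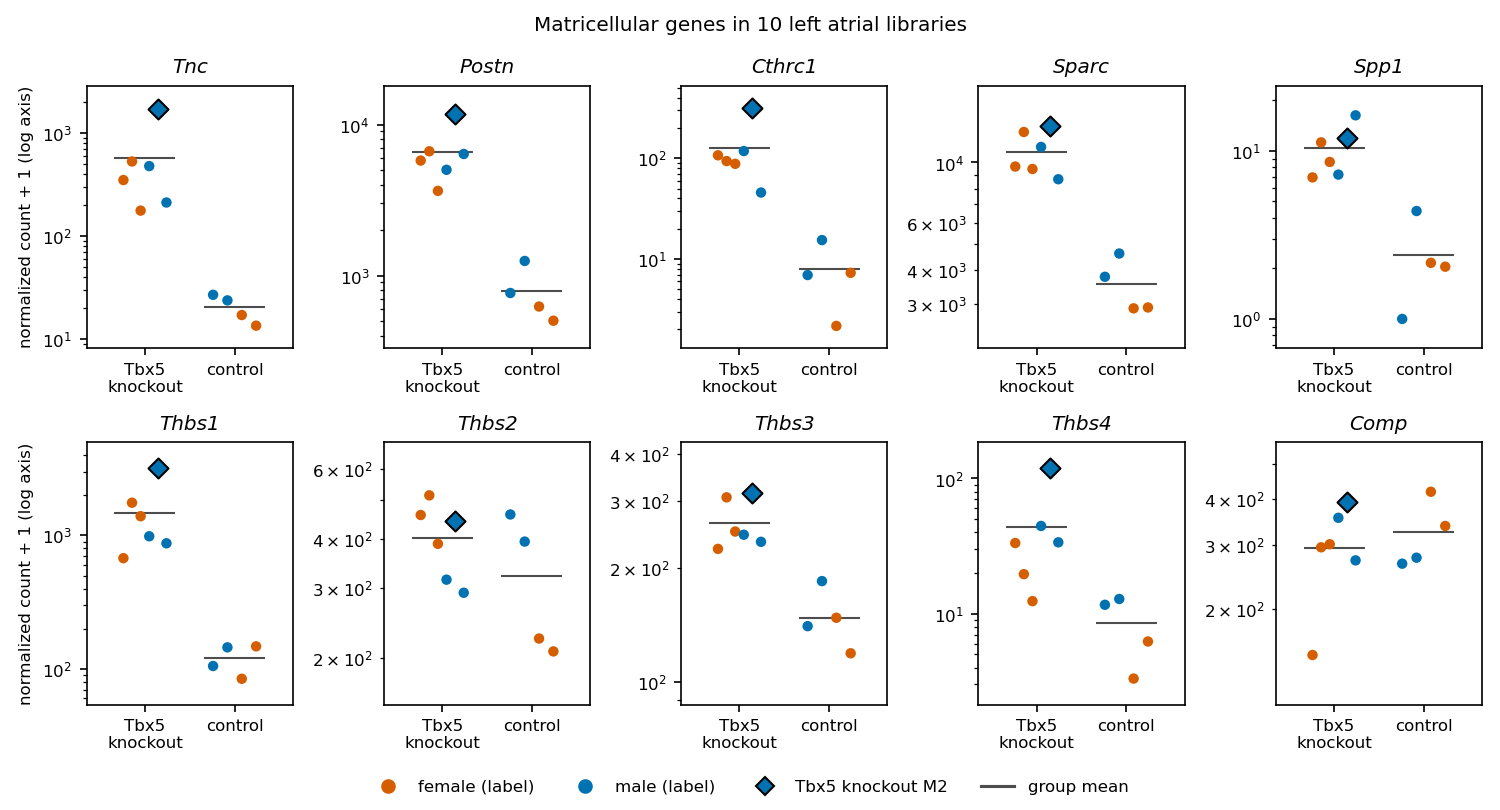
Each panel plots 1 gene as normalized count plus 1 on a log axis, with 6 Tbx5 knockout libraries left of 4 control libraries. Orange points are labelled female and blue points male, the diamond is knockout M2, and lines are group means. Knockout points lie above all control points for Tnc, Postn, Cthrc1, Sparc, Spp1, Thbs1 and Thbs3, and the groups overlap for Thbs2, Thbs4 and Comp.

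The 250 bases before the transcription start are shown for 4 genes. They were chosen to set Tnc and Postn, which rose, beside Thbs2, which did not pass the test, and Thbs4. Thbs4 passed, but it entered the test through the knockout libraries, so its pass is a description. Sequences are from RefSeq on GRCm38.p6, 5′ to 3′ on the gene's strand, and 7 of the 10 genes had an entry; Thbs1, Comp and Cthrc1 did not. They lie at chr4:64047016-64047265 (minus strand) for Tnc, chr3:54360857-54361106 (plus strand) for Postn, chr17:14694263-14694512 (minus strand) for Thbs2 and chr13:92794819-92795068 (minus strand) for Thbs4. Capitals mark motif matches on either strand. Tnc and Postn hold a TATA box (TATAAA) on the gene's strand, and Thbs2 holds TATAAA on the opposite strand, printed as TTTATA. Thbs4 holds overlapping TEAD sites (GGAATG), also on the opposite strand.
Tnc: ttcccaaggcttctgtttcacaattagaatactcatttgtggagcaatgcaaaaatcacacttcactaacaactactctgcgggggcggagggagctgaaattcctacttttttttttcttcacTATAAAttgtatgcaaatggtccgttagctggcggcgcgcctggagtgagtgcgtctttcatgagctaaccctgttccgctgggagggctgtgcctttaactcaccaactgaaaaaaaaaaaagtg
Postn: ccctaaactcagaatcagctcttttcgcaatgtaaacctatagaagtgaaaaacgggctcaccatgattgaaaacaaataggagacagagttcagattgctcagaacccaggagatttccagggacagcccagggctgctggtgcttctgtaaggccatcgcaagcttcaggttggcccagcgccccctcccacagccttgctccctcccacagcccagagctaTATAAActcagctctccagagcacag
Thbs2: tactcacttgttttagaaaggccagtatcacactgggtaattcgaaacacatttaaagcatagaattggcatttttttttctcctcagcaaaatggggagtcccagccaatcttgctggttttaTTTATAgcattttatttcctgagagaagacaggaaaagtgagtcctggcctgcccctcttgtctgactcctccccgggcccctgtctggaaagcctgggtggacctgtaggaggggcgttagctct
Thbs4: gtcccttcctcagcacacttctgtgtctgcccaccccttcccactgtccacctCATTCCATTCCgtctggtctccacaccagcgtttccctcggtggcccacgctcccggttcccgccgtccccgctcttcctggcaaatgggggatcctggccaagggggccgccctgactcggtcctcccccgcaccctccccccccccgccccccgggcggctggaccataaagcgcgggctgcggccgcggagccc
The match in Postn lies 26 to 21 bases before the start, close to where a TATA box usually sits, while those in Tnc and Thbs2 lie 126 to 121 bases before it. The TEAD matches of Thbs4 span bases 197 to 192 and 192 to 187 before the start and share 1 base. Of 32536 mouse promoters of the same length, 12.3% held TATAAA and 12.6% held GGAATG on either strand. The Spp1 window held TATAAA and a RUNX site (TGTGGTT, found in 4.4% of promoters). The windows of Thbs3 and Sparc, which both passed the test as higher, held none of the motifs searched. No T-box half-site (AGGTGT, 11.9% of promoters), AP-1 site (TGANTCA, 6.7%) or SRF CArG box (1.5%) was found in the 7 windows. A match describes letters and says nothing of binding, and a missing match refers to these windows alone.

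Tenascin C, a large hexameric glycoprotein that is scarce in healthy adult muscle and appears during tissue repair, had the largest fold change of the 9 tested genes. Tnc lies on chr4:63959785-64047015 (GRCm38, minus strand). It read 176 at the lowest, 415 at the median and 1735 at the highest in knockout libraries, against 26.0, 22.9, 16.2 and 12.6 in control M1, M2, F1 and F2. Every knockout library exceeded every control library, and knockout M2 lay far above the next, F2 at 531. The mean was 581 ± 583 in knockout and 19.4 ± 6.14 in control (SD, n = 6 and 4), a log2 fold change of 4.86 ± 0.71 (SE; edgeR adjusted p = 0.000115). That size rests in part on knockout M2: without it the fold was 17.6 rather than 29.1, a log2 fold change of 4.14 (edgeR adjusted p = 5.63e-06). Exons of an antisense transcript, 8030451A03Rik, cover 2.26% of the exon length of Tnc, and the strand setting of the counting is not given in the sources used here, so those reads cannot be told apart.

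Periostin, a secreted protein that binds collagen and integrins and marks activated cardiac fibroblasts, was among the most abundant of the 10 and also rose. Postn (chr3:54361109-54391037, plus strand) read 3636 at the lowest, 6078 at the median and 11826 at the highest in knockout libraries, against 765, 1248, 622 and 501 in control M1, M2, F1 and F2. The groups were separated by a wide gap, with knockout F3 lowest and knockout M2 highest. The mean was 6548 ± 2804 in knockout and 784 ± 328 in control, and the log2 fold change was 3.03 ± 0.33 (SE; edgeR adjusted p = 1.15e-05). Without knockout M2 it was 2.79.

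Cthrc1, a secreted glycoprotein with collagen-like repeats made by activated fibroblasts during repair, was also higher in knockout atria. Cthrc1 (chr15:39076932-39087121, plus strand) read 44.7 at the lowest, 99.7 at the median and 313 at the highest in knockout libraries, against 5.91, 14.4, 1.16 and 6.28 in control M1, M2, F1 and F2. The groups did not overlap, although control libraries held few reads of it. Cthrc1 entered the test through the knockout libraries, so its test result is given as a description. The mean was 127 ± 94.6 in knockout and 6.93 ± 5.49 in control, a log2 fold change of 4.05 ± 0.61 (SE; edgeR adjusted p = 0.000145). Leaving out control M2, the highest control, put the fold at 27.5, and leaving out knockout M2 put it at 11.8, against 16.6 with all libraries.

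Sparc, also called osteonectin, is a collagen-binding protein that assists the assembly of collagen fibrils, and it was the most abundant of the 10 genes in both groups. Sparc (chr11:55394500-55423183, minus strand) read 8672 at the lowest, 10537 at the median and 13650 at the highest in knockout libraries, against 3779, 4607, 2889 and 2910 in control M1, M2, F1 and F2. The lowest knockout library, M3, still lay far above the highest control. The mean was 10970 ± 2031 in knockout and 3546 ± 820 in control, a log2 fold change of 1.60 ± 0.17 (SE; edgeR adjusted p = 9.01e-06). Its knockout spread was small, with a coefficient of variation of 18.5% against 100% for Tnc.

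Osteopontin, a phosphoprotein made by activated macrophages and other cells that binds integrins and CD44, stayed near the limit of detection. Spp1 (chr5:104435118-104441050, plus strand) had 6 to 14 raw reads in knockout libraries and 0, 4, 1 and 1 in control M1, M2, F1 and F2. In normalized counts that is 5.95 at the lowest, 8.91 at the median and 15.3 at the highest in knockout, against 0, 3.39, 1.16 and 1.05 in control. The groups did not overlap, but Spp1 fell below the read filter and was not tested. With no filter its log2 fold change was 2.51 (edgeR adjusted p = 0.00199), and DESeq2 gave 2.61 (adjusted p = 0.0017). The size rests on single control libraries. With the filter, Spp1 passed into the test when a control was left out. Its log2 fold change was 3.42 without control M2 (edgeR adjusted p = 0.00139) and 2.16 without control M1 (edgeR adjusted p = 0.00697). Spp1 reached the filter's read level in 3 knockout and 0 control libraries. It thus entered those fits through the knockout libraries, and their values are a description. In males alone the log2 fold change was 2.40 and did not pass (edgeR adjusted p = 0.0816). A same-strand transcript, Gm42793, shares 18.75% of its exon length, so some of these few reads may belong to it.

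The thrombospondins divide into a trimeric subgroup, Thbs1 and Thbs2, and a pentameric subgroup, Thbs3, Thbs4 and Comp (also called thrombospondin 5). Thbs1, which can activate latent TGF-beta and inhibits blood vessel growth through CD36, rose strongly. Thbs1 (chr2:118111876-118127133, plus strand) read 674 at the lowest, 1188 at the median and 3199 at the highest in knockout libraries, against 104, 144, 83.3 and 146 in control M1, M2, F1 and F2. All knockout libraries lay well above the controls, and knockout M2 was again the highest. The mean was 1480 ± 928 in knockout and 119 ± 30.9 in control, a log2 fold change of 3.59 ± 0.42 (SE; edgeR adjusted p = 1.84e-05). A noncoding transcript on the opposite strand, Gm29233, shares 3.42% of its exon length.

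Thbs2, its closest relative and likewise an inhibitor of blood vessel growth, did not pass the test. Thbs2 (chr17:14665500-14694235, minus strand) read 291 at the lowest, 414 at the median and 513 at the highest in knockout libraries, against 459, 392, 223 and 207 in control M1, M2, F1 and F2. The groups overlapped, and male controls sat among the knockout libraries. The mean was 401 ± 86.1 in knockout and 320 ± 125 in control, a log2 fold change of 0.30 ± 0.22 (SE; edgeR adjusted p = 0.293). An approximate 95% interval ran from -0.13 to 0.73. The interval leaves room for a rise of moderate size, so the result does not show that Thbs2 stayed level.

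Within a library, the log2 ratio of Thbs1 to Thbs2 reads averaged 1.71 ± 0.73 (0.56 to 2.86) in knockout and -1.37 ± 0.67 (-2.13 to -0.50) in control. Thbs2 thus had more reads than Thbs1 in every control library, and Thbs1 more than Thbs2 in every knockout library. The difference of 3.08 had an exact two-sided permutation p of 0.00952 (0.0190 adjusted over 2 ratios compared). Without knockout M2 it was 2.85 (exact permutation p = 0.0159, adjusted 0.0317). This ratio, and the one of Thbs4 to Comp, was chosen with the members' values known, which the adjustment does not cover. The p-values are thus a description. The 210 splits of 6 and 4 libraries allow no two-sided p below 0.00952.

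Among the pentameric thrombospondins, Thbs3 rose modestly and evenly. Thbs3 (chr3:89215180-89226837, plus strand) read 224 at the lowest, 246 at the median and 313 at the highest in knockout libraries, against 140, 184, 147 and 118 in control M1, M2, F1 and F2. The groups did not overlap, and the spread within each was narrow. The mean was 261 ± 38.4 in knockout and 147 ± 27.3 in control, a log2 fold change of 0.80 ± 0.14 (SE; edgeR adjusted p = 0.00042). Exons of Mtx1, on the opposite strand, cover 6.59% of the exon length of Thbs3, and reads there cannot be told apart either.

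Thbs4, which in heart and skeletal muscle has been tied to an endoplasmic reticulum stress response through ATF6, was low and variable. Thbs4 (chr13:92751590-92794818, minus strand) read 11.4 at the lowest, 32.5 at the median and 118 at the highest in knockout libraries, against 10.6, 11.9, 2.31 and 5.23 in control M1, M2, F1 and F2. The groups overlapped by a narrow margin, since knockout F3 fell below control M2. The mean was 42.8 ± 38.7 in knockout and 7.51 ± 4.51 in control, a log2 fold change of 2.43 ± 0.65 (SE; edgeR adjusted p = 0.00801). Without knockout M2 the fold was 3.49 rather than 5.39 (edgeR adjusted p = 0.00675). Thbs4 entered the test through the knockout libraries, so both fits are given as a description.

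Comp, the cartilage oligomeric matrix protein, which also organises collagen in tendon and vessel wall, did not pass the test and leaned the other way. Comp (chr8:70373558-70382066, plus strand) read 148 at the lowest, 297 at the median and 392 at the highest in knockout libraries, against 265, 275, 419 and 337 in control M1, M2, F1 and F2. The groups overlapped, with knockout F1 alone below all others. The mean was 293 ± 84.0 in knockout and 324 ± 70.7 in control, a log2 fold change of -0.17 ± 0.21 (SE; edgeR adjusted p = 0.55). An approximate 95% interval ran from -0.58 to 0.24. Cartilage and tendon markers were close to absent: their 8 genes in the table summed to 8.25 to 17.1 in knockout and 13.6 to 17.8 in control libraries, and Col9a1 was at 0 in all 10.

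Read counts of Thbs4 set against those of Comp in the same library gave a log2 ratio of -3.09 ± 1.09 (-4.66 to -1.73) in knockout and -5.53 ± 1.27 (-7.18 to -4.49) in control. Comp outnumbered Thbs4 in all 10 libraries, by less on average in knockout. The difference of the means was 2.43, and 2.16 without knockout M2, and the ratios of the 2 groups overlapped. It is given as a description, since Thbs4 had few reads in control libraries and entered the test through the knockout libraries.

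**Figure D2:**
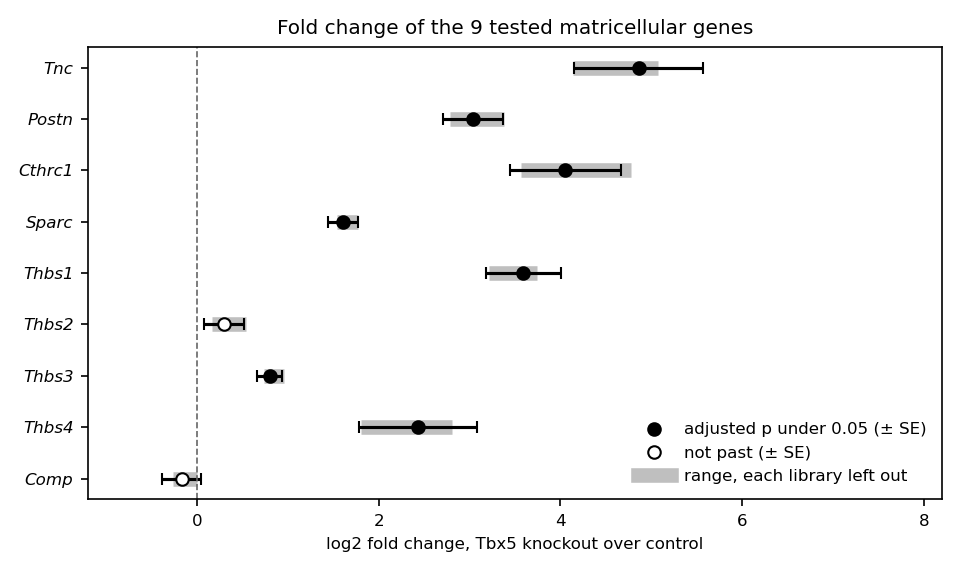
Points give the log2 fold change of Tbx5 knockout over control for the 9 tested genes, with bars of 1 SE. Filled points passed an adjusted p of 0.05, and the grey band spans the values with each library left out in turn. Tnc has the highest point at 4.86, and Thbs2 (0.30) and Comp (-0.17) are the open points.

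For reference, the authors' deposited table gives log2 fold changes of 3.02 for Tnc, 2.64 for Postn, 2.64 for Cthrc1, 2.91 for Thbs1, 1.58 for Sparc, 0.80 for Thbs3 and 1.54 for Thbs4. The authors' deposited table has Thbs2 at 0.31 and Comp at -0.14. Spp1 stands there at 1.70 and, on few reads, passed the authors' DESeq2 test (adjusted p = 0.000478). DESeq2 was also run here on the same counts, with no shrinkage of fold changes. That run gave 4.90 for Tnc, 4.17 for Cthrc1, 2.50 for Thbs4 and 0.83 for Thbs3. Every deposited value was smaller in size than in that run, so the deposited fold changes are not on the scale of those above. The reason was not tested.

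By labelled sex, the effects were least alike for Thbs2 and Comp. In females Thbs2 averaged 452 ± 62.9 in knockout and 215 ± 11.4 in control (n = 3 and 2), a log2 fold change of 1.05 ± 0.19 (SE; edgeR adjusted p = 0.00148). In males it averaged 349 ± 81.0 in knockout and 425 ± 47.3 in control, a log2 fold change of -0.30 ± 0.18 (edgeR adjusted p = 0.233). The male minus female difference of these effects was -1.35 ± 0.26, with an unadjusted edgeR p of 0.000174 and an adjusted p of 0.0718, short of the threshold. Over 17 alternatives its adjusted p ran from 0.00284 to 0.364 and passed in 5, among them DESeq2 (adjusted p = 0.00284) and edgeR without knockout M2 (0.0190) or knockout M3 (0.0489).

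Comp ran the opposite way, and its female effect lay at the edge of the test. It averaged 247 ± 86.0 in knockout and 378 ± 57.9 in control females, a log2 fold change of -0.64 ± 0.25 (SE; edgeR adjusted p = 0.0728 in the model of both sexes). Fitted on female libraries alone, it passed (edgeR adjusted p = 0.0471, log2 fold change -0.64). In males it averaged 339 ± 62.3 in knockout and 270 ± 7.26 in control, a log2 fold change of 0.31 ± 0.25 (edgeR adjusted p = 0.404). The difference of the effects was 0.95 ± 0.36 (edgeR adjusted p = 0.573). For the other 7 tested genes the adjusted p of this difference was 0.797 or more. Past the test were 8 of 9 members in females, with 28.2% of tested genes called, and 7 in males, with 26.1%. Thbs4 and Cthrc1, which entered the test through the knockout libraries, are in both counts as a description. For the difference itself 0 of 9 members passed in edgeR (2 at an unadjusted p under 0.05, and 1 in DESeq2), against 0.205% of tested genes.

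**Figure D3:**
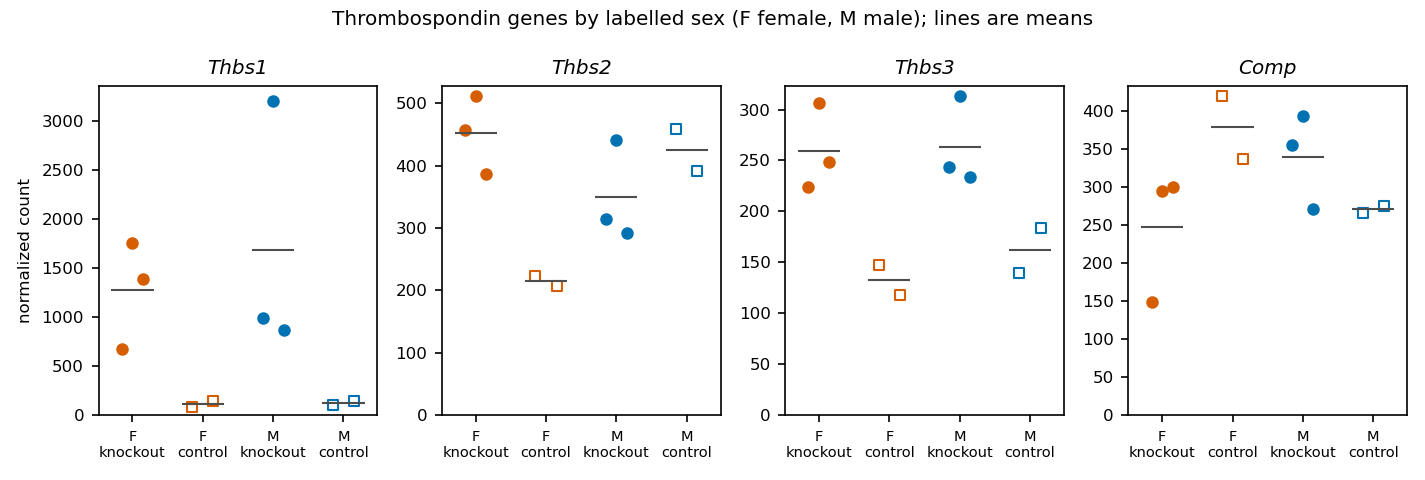
Normalized counts of 4 thrombospondin genes by labelled sex, with 3 knockout libraries (filled circles) left of 2 control libraries (open squares) in each sex and lines at the means. Thbs1 and Thbs3 are higher in knockout of both sexes, while Thbs2 averages 452 in knockout and 215 in control females but 349 in knockout and 425 in control males.

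Levels per kilobase used the exons of all annotated transcripts of a gene merged, which for Postn are 8702 bases from 9 transcripts. The transcripts present may be shorter, so the order of the genes depends on these lengths. By this measure Sparc led with 2896 ± 536 in knockout and 936 ± 216 in control. No other gene reached its range in either group. Postn came next in knockout at 752 ± 322 per kb and Thbs1 after it at 244 ± 153 per kb, and their ranges overlapped. In control Comp was second at 109 ± 23.8 per kb, followed by Postn at 90.1 ± 37.6 and Thbs2 at 45.7 ± 17.8 per kb, with overlapping ranges between neighbours. Tnc averaged 74.7 ± 75.0 per kb in knockout, a level within the range of Cthrc1 (mean 79.7) and overlapping in range with Thbs2 (mean 57.2), and 2.50 ± 0.789 per kb in control, where it lay with Cthrc1 (4.35) and Thbs4 (2.28) near the bottom. Spp1 was last in both groups, at 5.69 per kb in knockout and 0.848 per kb in control.

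The 10 genes together took 0.249% to 0.519% of all normalized counts in knockout libraries and 0.0621% to 0.106% in control libraries. Within that sum Sparc held 42.7% to 60.2% in knockout and 65.6% to 68.6% in control libraries. Postn held 23.1% to 37.5% in knockout and 11.8% to 18.1% in control, and Tnc 1.12% to 5.42% in knockout and 0.296% to 0.468% in control.

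**Figure D4:**
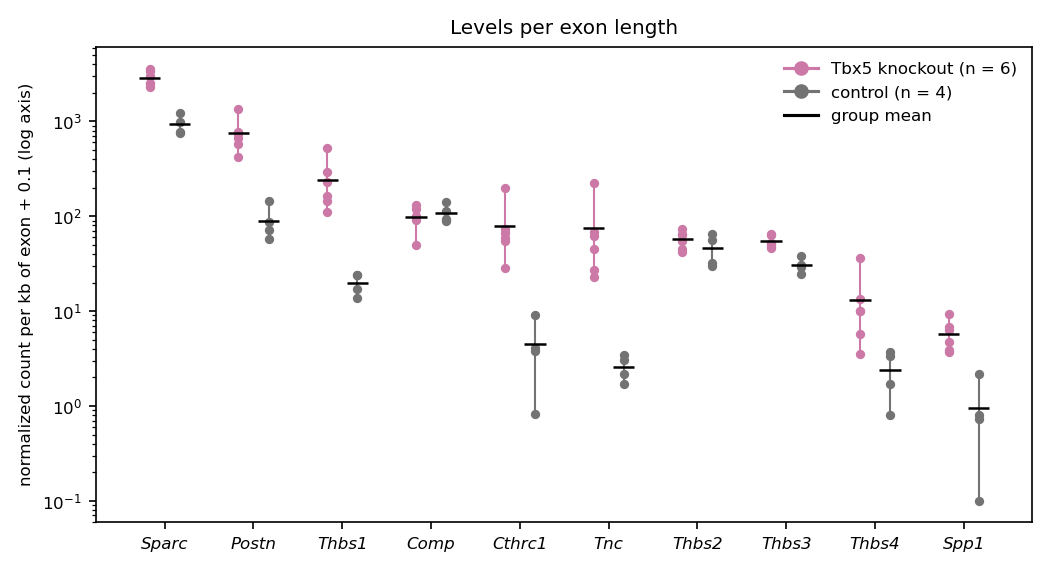
Normalized count per kilobase of exon plus 0.1 on a log axis for the 10 genes, ordered by the knockout mean, with knockout left of control. Points are libraries, vertical lines their range and black bars the group means. Sparc tops both groups, and Comp, at 98.8 in knockout and 109 in control, is the one gene whose knockout mean is below its control mean.

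Knockout M2 held the top value among knockout libraries in 8 of the 10 genes, F2 in Thbs2 and M3 in Spp1. The lowest was F1 in 4 genes, F3 in 3 and M3 in 3. Genes whose deviations from the group means most resembled those of Tnc, over 10 libraries and 9636 genes with a mean of at least 50, were Tnfrsf11b, Gdf6, Cdca3, Kif20a and Zfp697. Their root mean square differences from Tnc were 0.423, 0.429, 0.493, 0.519 and 0.523 on the log2 scale, where the deviations of Tnc itself have a root mean square of 0.868. In knockout M2 the activated fibroblast markers (3775) and the macrophage markers (10541) also had their highest sums of any library, while its fibroblast sum (36487) was the lowest of the knockouts. Their part in the M2 values was not tested.

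Marker genes of cells that can make matricellular proteins are given beside these results, and their counts are to be read against the 20.8% of all tested genes called higher and 21.8% called lower. Summed levels of activated fibroblast, macrophage, endothelial and platelet markers did not overlap between groups. Those of fibroblast and of smooth muscle and pericyte markers did. Among single tested genes, 16.3% had every knockout library above every control library. Fibroblast markers, 7 genes led by Gsn and Dcn, summed to 36487 to 48734 in knockout and 40505 to 44417 in control, with 4 genes higher and 2 lower. Activated fibroblast markers summed to 2096 to 3775 in knockout and 871 to 1104 in control, with 4 of 6 tested genes higher and 1 lower, and Acta2 averaged 758 in knockout and 281 in control. Macrophage and monocyte markers summed to 6723 to 10541 in knockout and 4072 to 5229 in control, with 7 of 10 higher and 2 lower, and Lyz2 averaged 3124 in knockout and 1172 in control. Smooth muscle and pericyte markers summed to 2612 to 3154 in knockout and 2272 to 2914 in control, with 3 of 6 higher and 0 lower. Endothelial markers summed to 17700 to 19756 in knockout and 13599 to 15924 in control, with 3 of 7 higher and 2 lower. The endothelial sum follows Vwf, which averaged 8625 in knockout and 4277 in control. Npr3 averaged 2814 in knockout and 4155 in control, and the list's median log2 fold change was 0.04. Platelet markers matter because platelets carry Thbs1. They summed to 266 to 725 in knockout and 206 to 241 in control, with 1 of 4 tested higher and 0 lower. The higher gene, Pf4, averaged 262 in knockout and 151 in control. None of the genes in these 6 lists was at 0 in all libraries. The part of these cell types in the rises of the matricellular genes was not tested.

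Of 15 other matricellular genes tested, from a wider list of 24 in the table, 7 were higher, 2 lower and 6 not past the test. Their median log2 fold change was 0.73. Among all tested genes, 20.8% were called higher and 21.8% lower. Cyr61, a CCN family protein induced by mechanical load, averaged 2336 ± 898 in knockout and 234 ± 107 in control, a log2 fold change of 3.30 ± 0.34 (SE; edgeR adjusted p = 8.82e-06). Wisp2, another CCN protein, averaged 982 ± 258 in knockout and 103 ± 24.9 in control, a log2 fold change of 3.21 (edgeR adjusted p = 2.82e-07). Fstl1, a secreted glycoprotein related to Sparc, averaged 14849 ± 2564 in knockout and 3413 ± 755 in control. Fbln5, which helps assemble elastic fibres, averaged 1239 ± 271 in knockout and 427 ± 55.5 in control. The lower ones, named after their values were seen, were Wisp1 (192.6 in knockout, 304 in control) and Spock2 (194 in knockout, 353 in control).

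Collagens and other matrix proteins that matricellular proteins bind were higher in knockout almost throughout. Of 16 tested, 15 were higher, 0 lower, and decorin (Dcn) alone did not pass, with a median log2 fold change of 1.55. The shares over all tested genes were 20.8% higher and 21.8% lower. Elastin (Eln) averaged 18983 ± 7266 in knockout and 1577 ± 233 in control, a log2 fold change of 3.56 ± 0.27 (SE; edgeR adjusted p = 7.03e-07). Col5a2, which regulates fibril diameter, averaged 5433 ± 1614 in knockout and 929.8 ± 123 in control. Col1a2 and Col5a1 had log2 fold changes of 1.68 and 1.85.

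Of 28 receptors tested, 15 were higher, 4 lower and 9 not past, with a median log2 fold change of 0.42. Over all tested genes, 20.8% were called higher and 21.8% lower. Cd44, a receptor for osteopontin and hyaluronan, averaged 969 ± 219 in knockout and 312 ± 106 in control, a log2 fold change of 1.61 ± 0.21 (SE; edgeR adjusted p = 4.69e-05). Itga9, the alpha subunit of an integrin that binds tenascin C and osteopontin, averaged 1119 ± 129 in knockout and 569 ± 52.1 in control. Itgb2, a leukocyte integrin subunit, averaged 157 ± 28.6 in knockout and 66.9 ± 14.4 in control. Vldlr, a lipoprotein receptor that binds thrombospondin 1, averaged 1034 ± 225 in knockout and 3335 ± 534 in control, a log2 fold change of -1.71 ± 0.16 (edgeR adjusted p = 2.92e-06). Cd36, the receptor through which Thbs1 acts on endothelium and named after its values were seen, averaged 5638 ± 1197 in knockout and 9347 ± 981 in control.

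Of 31 tested genes upstream of matricellular expression, 14 were higher, 5 lower and 12 not past, with a median of 0.28. Beside this, 20.8% of all tested genes were called higher and 21.8% lower. Sox9, a transcription factor of cartilage and activated fibroblasts, averaged 117 ± 11.5 in knockout and 35.0 ± 7.63 in control, a log2 fold change of 1.69 ± 0.15 (SE; edgeR adjusted p = 2.57e-06). Tgfb2, a TGF-beta ligand, averaged 265 ± 66.5 in knockout and 118 ± 10.7 in control, and Pdgfb, a platelet-derived growth factor, 199 ± 20.5 in knockout and 98.2 ± 16.1 in control. Smad3, which carries TGF-beta signals to the nucleus, averaged 319 ± 23.4 in knockout and 506 ± 57.3 in control, a log2 fold change of -0.69 ± 0.09 (edgeR adjusted p = 5.64e-05).

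Of 16 tested proteases that can cut matricellular proteins, 10 were higher, 3 lower and 3 not past, with a median of 0.39. All tested genes had 20.8% called higher and 21.8% lower. Adamts1, which cleaves thrombospondins, averaged 1915 ± 952 in knockout and 505 ± 57.3 in control, and Mmp14, a membrane-bound metalloproteinase, 313 ± 66.2 in knockout and 173 ± 22.7 in control. Adamts7, which degrades Comp, averaged 53.3 ± 11.5 in knockout and 142 ± 16.4 in control, a log2 fold change of -1.43 ± 0.16 (SE; edgeR adjusted p = 1.29e-05). Mmp9, a gelatinase of neutrophils and macrophages, averaged 5.69 ± 2.48 in knockout and 53.5 ± 29.1 in control. It read 2.75 to 9.34 in knockout libraries, near or below the filter's read level, and 13.0 to 75.2 in control libraries. Mmp9 thus entered the test through the control libraries, and its place among the 3 lower proteases is a description.

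Finally, of 20 endoplasmic reticulum stress genes set beside Thbs4, 5 were higher, 0 lower and 15 not past, with a median of 0.22. The share called higher is close to the 20.8% of all tested genes called higher, and nothing is read from this count. Pdia4 and Pdia6, protein disulphide isomerases, averaged 1225 ± 252 and 1965 ± 320 in knockout and 740.1 ± 99.0 and 1262 ± 182 in control. Manf, a secreted stress protein, averaged 797 ± 211 in knockout and 480 ± 79.6 in control, and Atf4, a stress transcription factor, 981 ± 184 in knockout and 626 ± 95.9 in control. Pdia3, the last of the 5, was named after its values were seen.

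**Figure D5:**
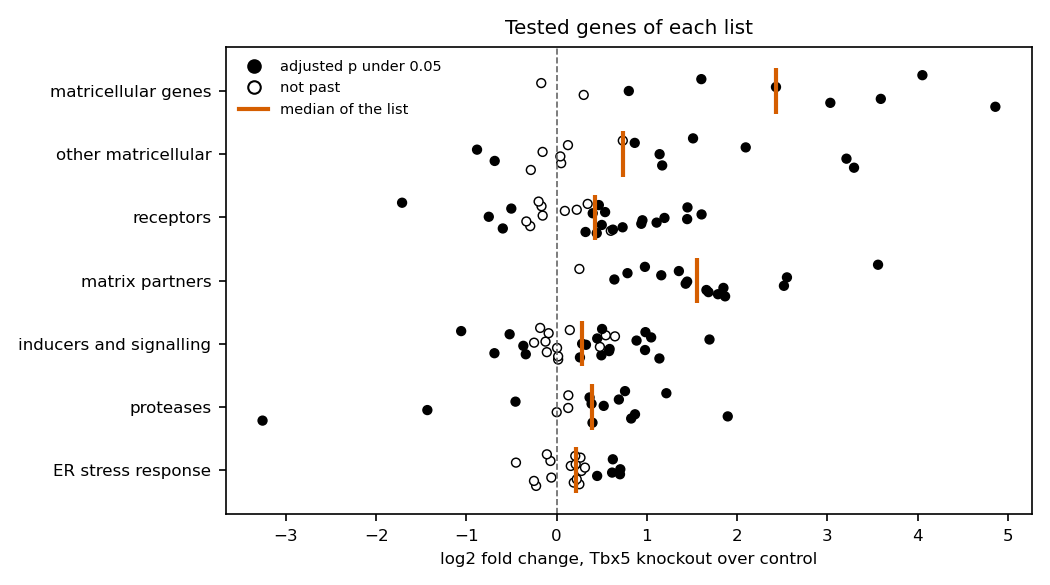
Log2 fold changes of Tbx5 knockout over control for the tested genes of 7 lists, with filled points past an adjusted p of 0.05, open points not past it and an orange bar at each list's median. Matrix partners lie to the right of 0 in all 16 tested genes. The median is 2.43 for the matricellular genes and 0.22 for the endoplasmic reticulum stress response. The 2.43 is the value of Thbs4, which entered the test through the knockout libraries.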

How the data were processed

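RNA was measured in 10 left atrial libraries, grouped by their titles into Tbx5 knockout (6) and control (4). Per the submitters' processing notes, the tools included TopHat2 2.0.11, featureCounts and DESeq2, with build mm10. The annotation and the counting's strand setting were not given in the sources used here. The labels' protocols name both an mRNA kit and ribosomal RNA removal, and which of them made these libraries is not given. The authors deposited raw counts per gene, per the file headers. The authors also deposited a normalized signal, each count over its library's size factor. The log2 fold change, linear fold, test score (the log2 fold change over its SE) and p-value columns were deposited by the authors from DESeq2.

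Raw counts were tested with edgeR 4.0.16 (R 4.3.3), using filterByExpr by group, TMM scaling, quasi-likelihood F-tests and Benjamini-Hochberg adjustment at 0.05 over 13191 genes. The SE of a log2 fold change is its size divided by the square root of F. Sex effects came from a model with labelled sex, genotype and their product. Ratios of paralogs used reads plus 0.5 and exact permutation tests. Levels per kilobase used exon lengths of GENCODE M21 on GRCm38, merged over all transcripts of a gene. The functions were tested on simulated data. The members and lists were chosen with earlier results of these data known. Named genes are the 10 members, up to 4 genes per context list with the smallest adjusted p past the threshold, up to 2 of the highest-level genes per marker list, Tbx5, and the 5 genes most like Tnc. No replicates agreed within sampling noise (lowest chi-square per degree of freedom 4.36). Total counts of 5701670 to 7697556 leave a large counting error on genes with a few reads, such as Spp1. No batch or date is labelled. Alternatives were other scalings, limma-voom 3.58.1, DESeq2 1.42.0, other filters and thresholds, sex or replicate terms, length and GC offsets, 1 sex alone, and each library left out.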

Additional observations from a re-analysis of the deposited data

Results flagged for a closer look

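Knockout M2 lay far from the other knockout libraries in 4 of the 10 genes: its distance to the nearest library exceeded Dixon's 95% critical share of the group's range, 0.625 for 6 samples. Tnc read 1735 in knockout M2, with 531 in the next library (share 0.772). Postn read 11826 in knockout M2, with 6652 in the next (share 0.632). Thbs4 read 118 in knockout M2, with 43.6 in the next (share 0.699). Cthrc1 read 313 in knockout M2, with 117 in the next (share 0.73). The 20 combinations of 10 genes and 2 groups were examined, and chance flags about 1 in 20 if values are independent and normally distributed. These were unlogged counts, and all 4 flags fell on 1 library, so they are not 4 separate events against that rate. Without knockout M2, Tnc and Postn passed the edgeR test with log2 fold changes of 4.14 and 2.79. Thbs4 and Cthrc1 then had 1.80 and 3.56, given as a description because both entered the test through the knockout libraries.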

How the results depend on the processing

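Of 215 alternative values for the 9 tested genes, 210 kept their direction and their side of the threshold. Thbs2 turned to -0.29 in males alone and passed in females alone at 1.05. Comp turned to 0.32 in males alone and passed in females alone at -0.64. Thbs3 missed the threshold in males alone at 0.70 (edgeR adjusted p = 0.0502). The count of members past the threshold was 7 to 8 with each library left out, and within 1.5 times of 7 in every alternative run. It was 8 with any control left out, where Spp1 joined the test, and 7 with any knockout left out. Thbs4, Cthrc1 and Spp1 entered the filtered fits through the knockout libraries, so their part in these counts is a description. The sex-by-genotype count was 1 instead of 0 (Thbs2) with DESeq2, with no filter and with a replicate block, and 0 to 1 with each library left out. Same-numbered libraries did not deviate together (correlations -0.13 to 0.17), so the block pairs nothing known. Under it 5411 of all genes were called, against 5622 without it.

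Over all genes the count was 3592 against a fold of 1.2, 2061 in males alone, 1533 at an absolute log2 fold change above 1, and 4709 to 6085 with each library left out. Scaling to library size alone moved the median of all genes to 0.14, with 3942 higher and 2020 lower calls, against 2741 and 2881. The calls of the 9 tested members kept their direction under it. The wider matricellular list had 14 in females alone and 5 with length and GC offsets, against 9. Receptors had 9 in males alone and 6 above a log2 fold change of 1, against 19. Inducers had 11 against a fold of 1.2, 7 in males alone, 4 above a log2 fold change of 1, 12 without control F1 and knockout M3 together, and 12 to 20 with each library left out, against 19. The low of 12 was without control F1. Proteases had 7 against a fold of 1.2, 8 in females alone, 4 in males alone and 4 above a log2 fold change of 1, against 13. The endoplasmic reticulum list had 8 with upper-quartile scaling, 9 with library size alone, 8 with the replicate block and 0 above a log2 fold change of 1, against 5. The causes were not tested.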
